A study of Mus musculus with 27 samples.

Results

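Neurons of the adult mouse olfactory bulb were compared with late neuroblasts, the immature cells from which bulb neurons form, in the total mRNA of sorted cells. The comparison set 3 neuron libraries against 3 late neuroblast libraries, which are 6 of the 27 libraries of the series, and covered the 17592 of 45195 annotated genes that passed a filter on low counts. The series as a whole follows adult neurogenesis from stem cells and early neuroblasts of the subventricular zone to late neuroblasts and neurons of the bulb, in total mRNA and in mRNA attached to tagged ribosomes. Both groups came from the bulbs of male mice of 8 to 12 weeks on a C57BL/6 background, which carried a tamoxifen-inducible Cre (CreER), the RiboTag allele Rpl22.HA and an eYFP reporter, and which had all received tamoxifen by gavage at 200 mg per kg. The names of the late neuroblast libraries hold that of the DiCRY line, Dcx-CreER-Rpl22.HA-eYFP, in which the doublecortin promoter drives Cre. The names of the neuron libraries hold an abbreviation that the labels do not spell out. Their driver line and the time between tamoxifen and dissection are not given in the sources used here. For each library, 200 to 500 living eYFP-positive cells were sorted from the bulbs of 1 to 2 mice, so that fluorescence marks cells in which Cre had been active and their descendants, and not a stage of maturation as such. Polyadenylated RNA was copied into full-length cDNA by Smart-seq2, a method for small cell numbers, with 15 to 18 cycles of PCR.

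Late neuroblasts reach the bulb in chains along the rostral migratory stream, leave the chains, move outward through the layers and become granule or periglomerular interneurons, most of which release GABA. On this path a cell gives up the proteins of migration, among them doublecortin and the polysialic acid on its adhesion molecules. It grows dendrites, places receptors and channels in its membrane, and assembles the machinery that releases transmitter. Granule cells have no axon and release transmitter from their dendrites.

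The cells carried the markers of their labels. Sox11, a transcription factor of immature neurons (ENSMUSG00000063632, chr12:27334268-27342718), had 20.7, 17.9 and 45.6 CPM in neurons, against 1689, 2857 and 995 CPM in late neuroblasts. St8sia2, the enzyme that builds polysialic acid (ENSMUSG00000025789, chr7:73939119-74013727), had 0, 0 and 0 CPM in neurons, against 174, 199 and 93.3 CPM in late neuroblasts. Neurons thus held far less of the first and were at 0 for the second, which was at least 1191-fold lower (bound of the late neuroblast mean against 3 counts over the neuron libraries). Snap25, a membrane protein of the vesicle fusion complex (ENSMUSG00000027273, chr2:136713439-136782428), had 2339, 2502 and 4083 CPM in neurons, against 283, 338 and 165 CPM in late neuroblasts. Rbfox3, the splicing factor known as NeuN (ENSMUSG00000025576, chr11:118489760-118911597), had 103, 106 and 117 CPM in neurons, against 8.51, 23.5 and 6.77 CPM in late neuroblasts. Neither gene overlapped between the groups, and neurons were higher in every library. Values are CPM, counts scaled to a common library total after TMM normalisation, and coordinates are those of the RefSeq annotation of GRCm38.p6.

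The libraries held 5225929 to 9277388 counts in neurons and 6031319 to 14624002 counts in late neuroblasts. Spearman correlations across genes were 0.85 to 0.918 between libraries of a group and 0.781 to 0.808 between the groups. Between 3.98% and 9.53% of the neuron counts, and between 1.56% and 7.18% of the late neuroblast counts, fell on genes overlapping rRNA. All neuron libraries and late neuroblast replicate 2 carried the same second index sequence, called index A here, and late neuroblast replicates 1 and 3 carried another. Values from index A alone, with 3 neuron libraries against that 1 late neuroblast library, are therefore given beside the medians that differ from them by over 1.5 times or in sign. Late neuroblast replicate 2 also stood apart in the markers of other cells. The 16 astrocyte markers summed to 4125, 9472 and 2088 CPM in neurons, against 12740, 2000 and 18320 CPM in late neuroblasts. The 15 oligodendrocyte markers, of which 14 were tested, summed to 1797, 6278 and 8650 CPM in neurons, against 1211, 1105 and 3428 CPM in late neuroblasts. Microglial markers summed to 58.8, 31.6 and 60.7 CPM in neurons, against 96.4, 42.2 and 205 CPM in late neuroblasts, and markers of endothelial, mural and fibroblast cells to 290, 224 and 82.5 CPM, against 231, 28.3 and 1118 CPM. These lists overlapped between the groups, and edgeR's quasi-likelihood test called 0 of their members, against 2, 4, 0 and 1 at an unadjusted p under 0.05 and 1, 1, 0 and 1 by DESeq2 (astrocytes, oligodendrocytes, microglia, and endothelial and related cells). Their log2 fold changes still leaned to 1 side. Of 14 tested oligodendrocyte markers, 13 were above 0, with a median of 2.45 (2.65 within index A). Below 0 were 15 of 16 astrocyte markers, with a median of -1.15 (1.195 within index A). So were 9 of 10 microglial markers (-1.72, and -1.42 within index A) and 10 of 11 endothelial and related markers (-1.36, and 2.72 within index A). Markers of mitral, tufted and other glutamatergic neurons summed to 1485, 1306 and 1068 CPM in neurons, against 592, 371 and 414 CPM in late neuroblasts, without overlap, and 2 of 11 were called higher. Of 18 tested markers of stem cells and radial glia, 6 were called lower and 17 were below 0, with a median of -1.33, and of 0.64 within index A. They summed to 1892, 3148 and 962 CPM in neurons, against 5331, 1060 and 8322 CPM in late neuroblasts, and overlapped. Of the further marker lists, oligodendrocyte precursors had 1 of 10 called higher, ependymal cells 1 of 7 lower, olfactory ensheathing cells and sensory axons 1 of 10 in each direction, and blood cells 0 of 1 (0 at an unadjusted p under 0.05 and 0 by DESeq2). The part of such cells in the results was not tested, and in sorted pools fewer cells of a type and less RNA per cell cannot be told apart.

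**Figure D1:**
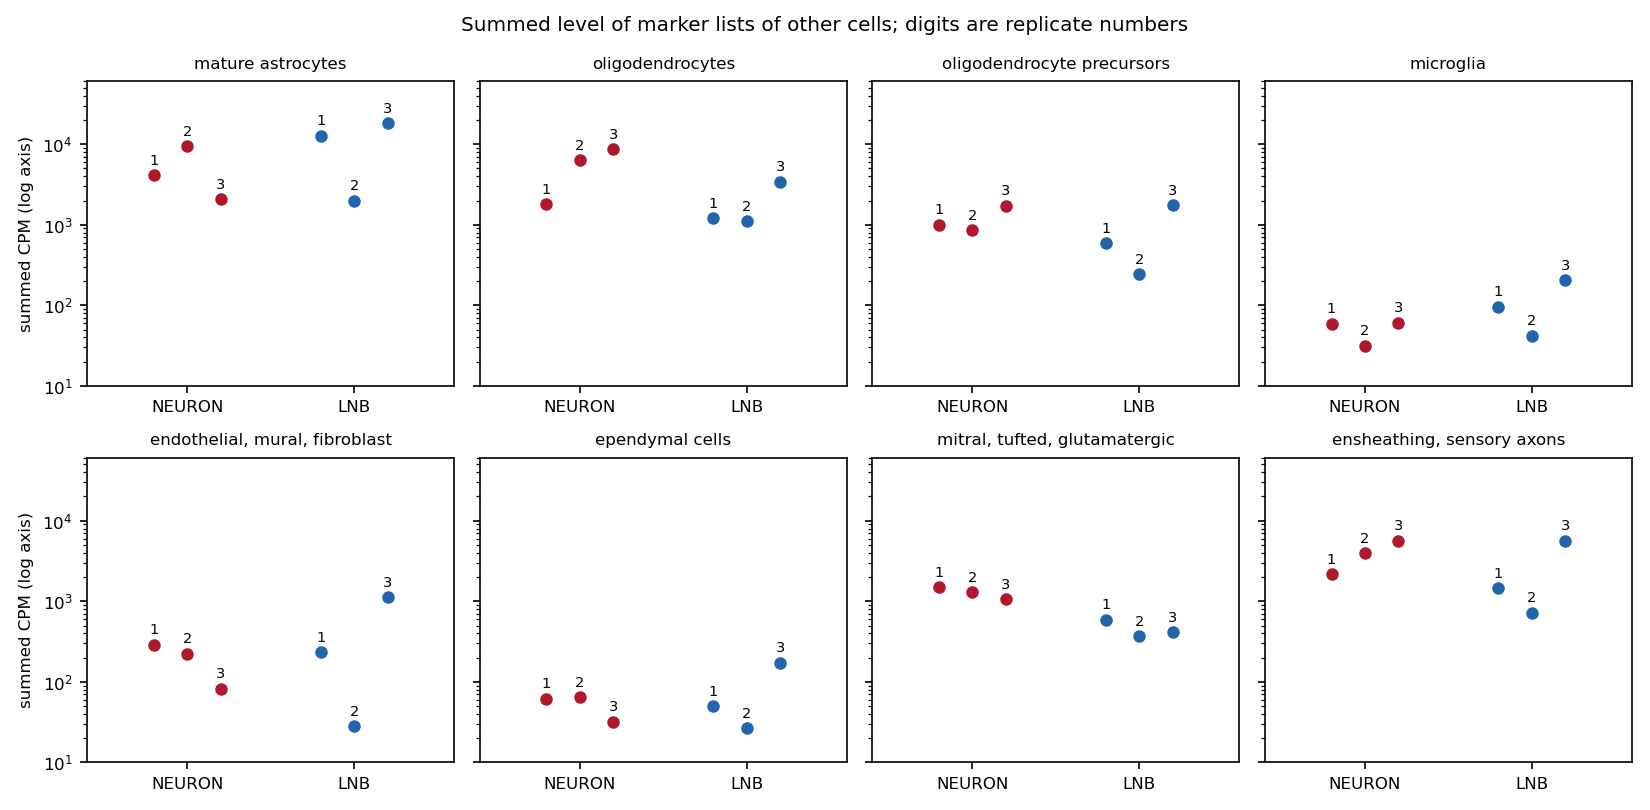
Summed CPM of 8 marker lists of other cells (log axis) in each NEURON and LNB library, with replicate numbers above the points. LNB replicate 2 lies below LNB replicates 1 and 3 for astrocytes (2000 CPM, against 12740 and 18320), while the glutamatergic markers do not overlap between the groups.

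Of the 17592 genes tested, 2580 (14.7%) differed at an adjusted p under 0.05. Of these, 937 were higher in neurons (5.33% of the genes tested) and 1643 were lower (9.34%). The difference was at least 4-fold for 510 of the higher and 686 of the lower genes, and at least 16-fold for 163 and 244. No count was seen in any neuron library for 115 of the lower genes, and none in any late neuroblast library for 47 of the higher ones. The groups did not overlap for 5483 genes (31.2% of those tested), including 2486 of the 2580. The median log2 fold change of all tested genes was -0.18 with TMM scaling and -0.01 with RLE scaling, a shift of 0.16 that moved the share of higher genes among those called to 48.4% from 36.3%. Without late neuroblast replicate 1 the count was 1625 (518 higher and 1107 lower), and 1234 genes (423 higher and 811 lower) were called whichever library was left out. Index A alone gave 1666 genes (511 higher and 1155 lower). A fit of the 6 neuron and late neuroblast libraries without the other 2 stages gave 1290 genes, 794 higher and 496 lower, so that most of the called genes were then higher in neurons. For the gene lists given next, counts of 3 or fewer moved by at most 2 genes when a single library was left out, except where stated. Called members named from these lists were mostly picked for groups that do not overlap, by the rule given under processing. Statements of no overlap for them restate that choice. Of the 937 genes higher in neurons, 908 had their highest mean of the 4 stages in neurons. The 1643 lower genes had theirs in late neuroblasts (362), early neuroblasts (964) or stem cells (317).

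**Figure D2:**
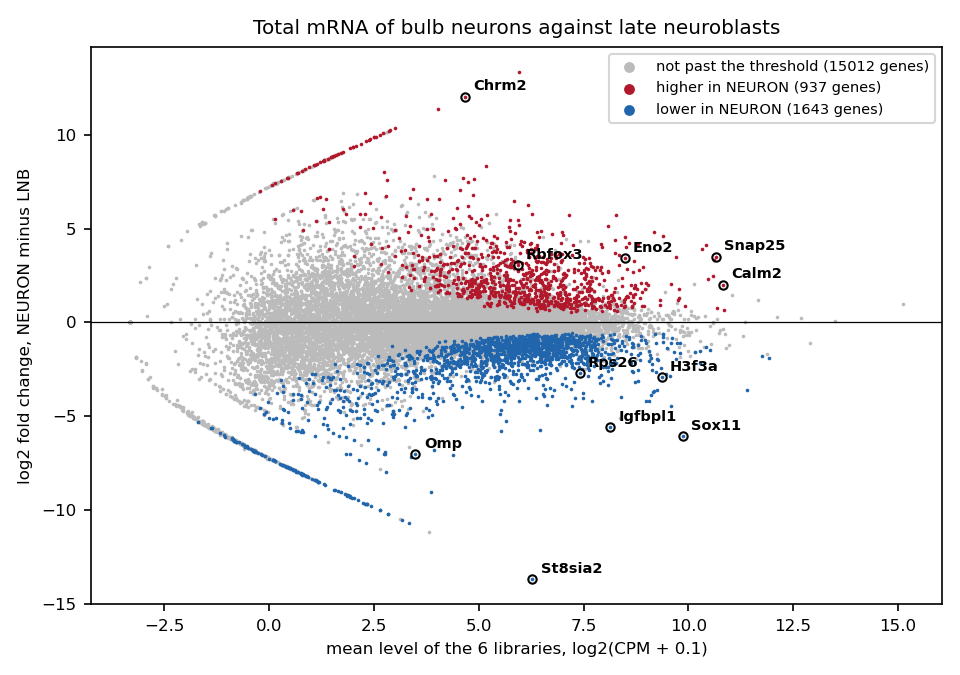
Each point is 1 of 17592 genes, by its mean level over the 6 libraries (log2 of CPM + 0.1) and its log2 fold change, NEURON minus LNB. Red points (937) are higher and blue points (1643) lower at an adjusted p under 0.05, and genes with 0 counts in 1 group form the curved outer bands, where the fitted value depends on a prior count.

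Genes of migrating neuroblasts fell together. Of 32 tested genes of neuroblasts and immature neurons, 26 fell and the other 6 did not pass the test, with a median log2 fold change of -2.31 (-2.62 within index A) beside -0.18 for all genes. Igfbpl1, a secreted protein of neural progenitors, had 6.12, 21.2 and 7.26 CPM in neurons, against 550.0, 698 and 395 CPM in late neuroblasts (log2 fold change -5.56 ± 0.47, adjusted p 6.2e-05). Dcx, the microtubule-binding protein doublecortin whose promoter also drives the Cre of the late neuroblast line, had 210.3, 141 and 202 CPM in neurons, against 1191, 1583 and 917 CPM in late neuroblasts (-2.74 ± 0.28, adjusted p 0.000163). Neurons kept a Dcx signal in all 3 libraries, whereas that of St8sia2 was at 0. Cd24a, a surface glycoprotein used to sort neuroblasts, and Mex3a, an RNA-binding protein, were 2 further members, chosen after their values were seen, and changed by -4.21 ± 0.37 and -4.38 ± 0.38. Members not called included Gad1, which makes GABA, with 1055, 1627 and 2724 CPM in neurons, against 451, 604 and 274 CPM in late neuroblasts (adjusted p 0.0526). Its groups did not overlap and neurons were higher, the opposite of the list. The part of the stem cell and radial glia markers given above, of which 6 were also lower, was not tested.

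The transcription factors that set interneuron fate were lower as well. Of 39 tested, 25 fell (15 without late neuroblast replicate 2) and the other 14 did not pass the test, with a median of -1.58. Dlx2, a homeobox factor of GABAergic progenitors, had 47.8, 48.9 and 25.5 CPM in neurons, against 689.8, 820.2 and 389 CPM in late neuroblasts (-3.96 ± 0.35, adjusted p 6.79e-05). Nfix and Nfib, members of the nuclear factor I family, changed by -2.81 ± 0.30 and -2.62 ± 0.32. All 3 were lower in every neuron library than in any late neuroblast library. Bcl11b, a zinc finger factor, had 104, 85.8 and 74.7 CPM in neurons, against 76, 120.2 and 51.6 CPM in late neuroblasts and was not called (adjusted p 0.902), nor was the neuronal factor Myt1l at 254, 172 and 276 CPM in neurons, against 143, 236 and 67.1 CPM in late neuroblasts. Both overlapped between the groups.

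Few factors associated with mature and active neurons passed the test. Of 34 tested, 4 rose and 2 fell, against 5.33% and 9.34% of all genes, with a median of 0.53 (1.42 within index A and 0.82 without late neuroblast replicate 3), and the count of lower genes was 4 without late neuroblast replicate 3 or neuron replicate 1. Nrip3, a nuclear receptor-interacting protein, had 246, 434 and 702 CPM in neurons, against 21.6, 22.4 and 31.7 CPM in late neuroblasts (4.19 ± 0.89). Peg3, an imprinted zinc finger gene, had 858, 530.2 and 619 CPM in neurons, against 182, 247 and 108 CPM in late neuroblasts (1.90 ± 0.38), and the repressors Scrt2 and Zbtb16 changed by -3.38 ± 0.67 and -3.11 ± 0.57. Beside these, Ets1, an ETS-family factor among the 12 largest falls over all genes, had 0.106, 0 and 0 CPM in neurons, against 27.5, 45.9 and 12.5 CPM in late neuroblasts, and Dusp4, a phosphatase that acts on MAP kinases, had 3.38, 1.96 and 4.28 CPM in neurons, against 205, 201 and 109.7 CPM in late neuroblasts (-5.76 ± 0.42, adjusted p 2.5e-05). Frat2, an inhibitor of GSK3, and Sncaip, the synuclein-interacting protein synphilin, were also among the 12, at 0, 0 and 1.12 CPM in neurons, against 21.5, 70.9 and 31.5 CPM in late neuroblasts for Frat2 and 0, 2.69 and 2.42 CPM in neurons, against 84.3, 105 and 82.8 CPM in late neuroblasts for Sncaip.

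**Figure D3:**
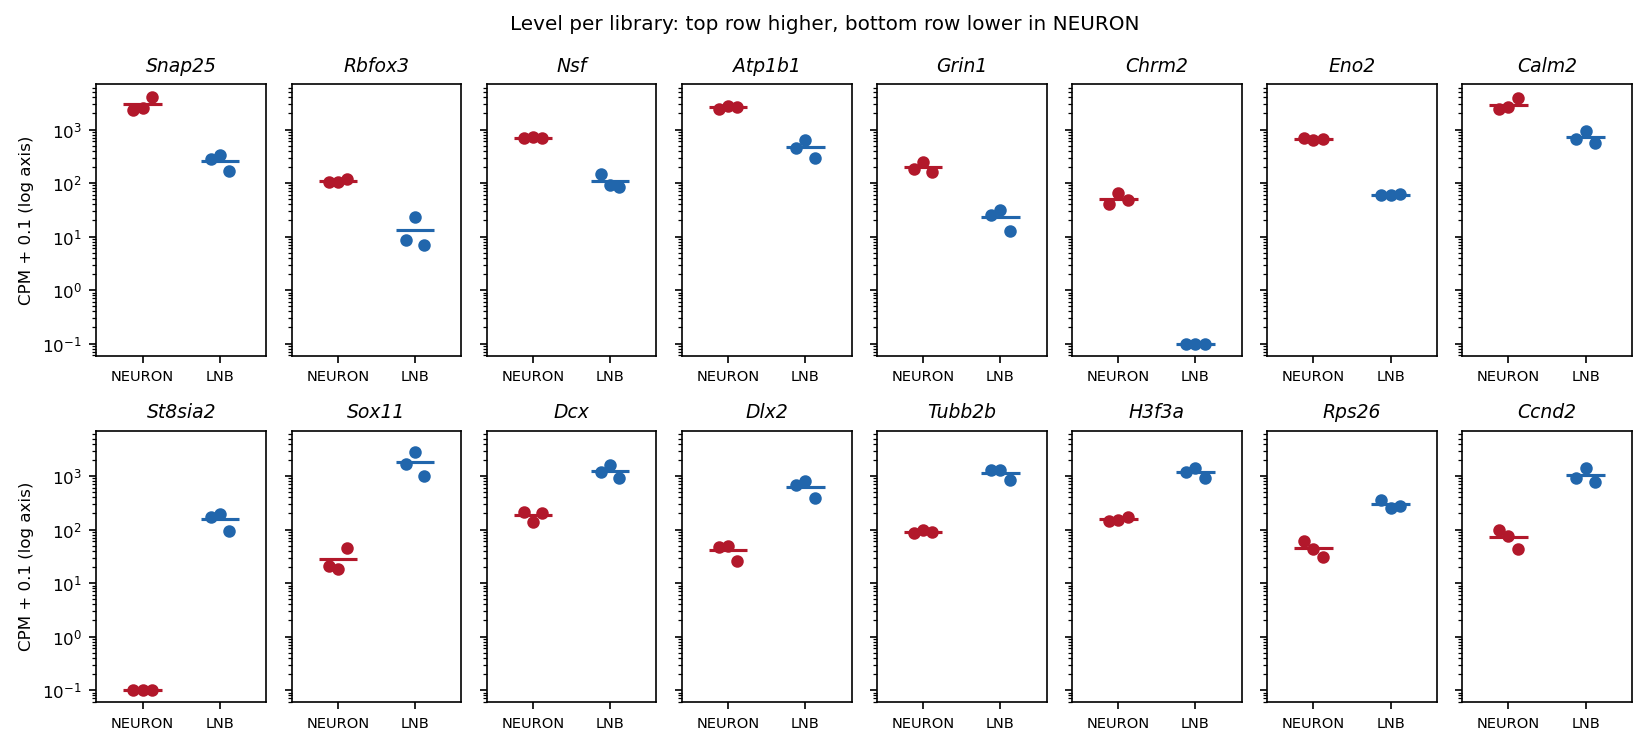
CPM + 0.1 (log axis) of 16 genes in the 3 NEURON libraries (red) and the 3 LNB libraries (blue), with horizontal lines at the group means. The upper genes are higher and the lower genes are lower in every NEURON library, and St8sia2 in NEURON and Chrm2 in LNB lie at 0 counts. The markers aside, these genes were named by a rule that requires groups that do not overlap.

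Microtubule genes fell more often than they rose. Of 45 tested microtubule and growth-cone genes, 22 fell and 5 rose. Tubb2b, a beta-tubulin of migrating and growing neurons, had 86.7, 98.2 and 89.9 CPM in neurons, against 1275, 1271 and 837 CPM in late neuroblasts (-3.62 ± 0.23, adjusted p 2.5e-05). Dpysl3, a collapsin response mediator of the growth cone, had 102, 60.0 and 79.9 CPM in neurons, against 1071, 1511 and 622 CPM in late neuroblasts (-3.73 ± 0.32). Tubb5, another beta-tubulin whose counts may be shared with pseudogene copies, had 481, 439.7 and 432 CPM in neurons, against 2097, 2624 and 1362 CPM in late neuroblasts (-2.17 ± 0.24). The groups did not overlap for any of these 3 genes. Among those that rose were Map1a, a microtubule-associated protein of mature dendrites (1.96 ± 0.34), and Gap43, a growth-associated protein (1.45 ± 0.34). Gap43 rose although it is known for growing axons, and it also stands in the list of sensory axon markers, where Omp, the marker of olfactory sensory neurons, had 0.422, 0 and 0 CPM in neurons, against 16.7, 30.2 and 19.6 CPM in late neuroblasts. Map1b, the related protein of growing axons, had 1575, 1197 and 1401 CPM in neurons, against 1949, 3001 and 1120 CPM in late neuroblasts and was not called (adjusted p 0.251). Of 24 tested genes of neurofilaments, the axon initial segment and nodes, 5 rose (2 without late neuroblast replicate 1, 3 without neuron replicate 1 or 2) and the other 19 did not pass the test. They included Ank3, the ankyrin that anchors sodium channels at the initial segment, with 337, 293 and 324 CPM in neurons, against 80.6, 118 and 78.9 CPM in late neuroblasts (1.78 ± 0.39), and Cntnap2, a neurexin-like protein of axons, with 250.3, 326 and 155 CPM in neurons, against 39.3, 25.6 and 41.9 CPM in late neuroblasts (2.78 ± 0.52).

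Part of the guidance genes fell. Of 39 tested receptors for guidance and migration cues, 9 fell and 2 rose, and the share that rose is near the 5.33% over all genes. Both that rose are EphA receptors: Epha5 had 323, 285 and 306 CPM in neurons, against 43.3, 27.5 and 31.5 CPM in late neuroblasts (3.16 ± 0.34, adjusted p 0.000237), and Epha3 had 28.8, 73.2 and 30.9 CPM in neurons, against 3.65, 6.48 and 1.43 CPM in late neuroblasts (3.48 ± 0.59). Lrp8, a receptor for the migration signal reelin, had 81.6, 41.4 and 69.5 CPM in neurons, against 358, 331 and 214 CPM in late neuroblasts (-2.23 ± 0.30), and Plxnb1, a receptor for semaphorins, changed by -1.76 ± 0.31. Of 36 tested ligands, 9 fell and 2 rose, again near that share (1 without late neuroblast replicate 1, or neuron replicate 2 or 3). Efnb1, a membrane ligand of EphB receptors, had 8.13, 17.8 and 12.1 CPM in neurons, against 110.4, 156 and 65 CPM in late neuroblasts (-3.13 ± 0.36). Efna4, a ligand of EphA receptors, was at 0 in all neuron libraries and at 4.99, 12.5 and 12.5 CPM in late neuroblasts, so that neurons were at least 76-fold lower. Slit1, a repellent of migrating neuroblasts, had 8.45, 3.43 and 23.8 CPM in neurons, against 147, 173 and 77.3 CPM in late neuroblasts (-3.50 ± 0.58). Reln, which encodes reelin and is made by mitral cells, had 246, 241 and 204 CPM in neurons, against 73.2, 14 and 83 CPM in late neuroblasts (adjusted p 0.197). Reln did not overlap between the groups, but the late neuroblast libraries spread widely and it was not called. The median of the receptors was -0.31, with 0.40 within index A, 0.15 without late neuroblast replicate 3, and 0.03 and -0.55 without neuron replicates 1 and 2. That of the ligands was 0.31, with 0.98 within index A, 0.15 and 0.47 without late neuroblast replicates 1 and 3, and 0.11 without neuron replicate 2.

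The machinery of transmitter release was higher in neurons. Of 60 tested presynaptic genes, 37 rose and the other 23 did not pass the test, with a median of 1.99 (1.96 within index A). Left-out libraries changed the count to between 28 and 37. Nsf, the ATPase that takes fusion complexes apart, had 705, 733 and 682 CPM in neurons, against 145, 93.7 and 84.9 CPM in late neuroblasts (2.71 ± 0.31, adjusted p 0.000323). Syt4, a member of the synaptotagmin family, had 170.4, 203 and 202 CPM in neurons, against 44.6, 46.4 and 27.2 CPM in late neuroblasts (2.28 ± 0.31), and Syngr1, a synaptic vesicle protein, had 247, 266 and 249.7 CPM in neurons, against 80.1, 63.1 and 65.3 CPM in late neuroblasts (1.87 ± 0.26). Snap25 of the same list changed by 3.50 ± 0.66 (adjusted p 0.00476) and Dnm1, the dynamin of vesicle recycling, by 3.52 ± 0.67. Each of these was higher in every neuron library than in any late neuroblast library. Other members were not called: Syt11, a synaptotagmin without calcium binding, had 753, 1125 and 1036 CPM in neurons, against 641, 513 and 805 CPM in late neuroblasts (adjusted p 0.101), and Synpr, a vesicle membrane protein, had 806, 1003 and 1348 CPM in neurons, against 323, 507 and 179.9 CPM in late neuroblasts with an adjusted p of 0.136. All 60 members had their log2 fold change in ribosome-bound mRNA below that in total mRNA, as described at the end.

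Promoter letters of the genes that rose are shown for 1 element known to keep neuronal genes silent elsewhere, the RE1 site of the repressor REST, since several presynaptic genes are textbook targets. The left part of the element, TTCAGCACC, was searched on both strands in RefSeq promoters of GRCm38.p6 from 250 bases before to 50 after the start. It was present in 11 of 697 genes higher in neurons that had a promoter entry (1.58%), in 4 of 1147 lower genes (0.349%) and in 59 of all 11701 tested genes with an entry (0.504%). A longer form, which adds letters of the right part, was in 1 of the 697 higher genes, 0 of the 1147 lower genes and 1 of all 11701. Other elements were searched too. The CRE element was in 3.87% of higher, 3.49% of lower and 3.44% of all tested genes, and the TATA element in 9.76%, 10.0% and 8.77%. The 11 genes depend on the calls: the count was 5 without late neuroblast replicate 1, 1 within index A and 17 with DESeq2, all computed after seeing the data. They include Syn1, which tethers synaptic vesicles, Ppfia3, a scaffold of the active zone, Grm2, a metabotropic glutamate receptor, Scg2 and Ptprn2 of dense-core vesicles, and Osbp2, which binds oxysterols. In the windows below, each read on the gene's strand with up to 10 bases on either side, capitals mark TTCAGCACC or, where the match lies on the opposite strand, its reverse complement.
Syn1 (GRCm38.p6 chrX:20921132-20921160, minus strand): cactgtcggaTTCAGCACCgcggtcagag
Ppfia3 (GRCm38.p6 chr7:45367047-45367075, minus strand): tcattggccaTTCAGCACCgtccgtcagt
Grm2 (GRCm38.p6 chr9:106656333-106656359, minus strand): cccggggaTTCAGCACCacactgtgga
Scg2 (GRCm38.p6 chr1:79440015-79440043, minus strand): ggagctgtccGGTGCTGAAacggcccgag
Ptprn2 (GRCm38.p6 chr12:116485723-116485751, plus strand): ggcgctgtccGGTGCTGAAgctcggccgg
Osbp2 (GRCm38.p6 chr11:3774781-3774809, minus strand): cgctgtccgcGGTGCTGAAgcggtgggag
The changes of these genes in total mRNA were 1.86 ± 0.40 for Syn1, 2.84 ± 0.68 for Ppfia3, 4.80 ± 1.05 for Grm2, 4.63 ± 1.18 for Scg2, 1.83 ± 0.38 for Ptprn2 and 3.17 ± 0.80 for Osbp2. The call was lost without some library for Scg2 (3 of the 6 left-out fits called it), Ppfia3 (5 of 6) and Osbp2 (5 of 6). A match is a description of the letters and says nothing of binding. Rest itself had 3.27, 0 and 12.5 CPM in neurons, against 7.3, 8.2 and 10.7 CPM in late neuroblasts.

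Receptors for transmitters rose in several families. Of 16 tested GABA-A and glycine receptor subunits, 8 rose and the other 8 did not pass the test, with a median of 1.77 (2.75 within index A). The count was 4 or 5 without late neuroblast replicate 1, 2 or 3 or neuron replicate 1 or 3. Gabra5, an alpha subunit found mostly outside synapses, had 46.2, 84.6 and 235 CPM in neurons, against 0, 7.58 and 2.14 CPM in late neuroblasts (5.17 ± 1.09, adjusted p 0.0089). Gabra2, the alpha subunit of young neurons, had 160.1, 174 and 134 CPM in neurons, against 44.1, 21.9 and 67.5 CPM in late neuroblasts (1.82 ± 0.39). Both were higher in every neuron library. In contrast, Gabrb1 had 178, 359 and 132 CPM in neurons, against 197, 27.8 and 315 CPM in late neuroblasts and Gabrg1 51.3, 77 and 42.5 CPM in neurons, against 94.1, 5.72 and 124 CPM in late neuroblasts, and both overlapped. In those 2 genes late neuroblast replicate 2 was far below replicates 1 and 3, as it was for the astrocyte markers.

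Of 27 tested ionotropic glutamate receptor genes, 6 rose (3 without late neuroblast replicate 3 or neuron replicate 3), with a median of 0.98 (1.82 within index A and 0.58 without neuron replicate 3). Grin1, the obligatory NMDA receptor subunit, had 183, 246 and 164 CPM in neurons, against 24.9, 31.5 and 12.5 CPM in late neuroblasts (3.10 ± 0.50, adjusted p 0.00203), and the kainate receptor subunit Grik2 had 62.4, 48.1 and 53.6 CPM in neurons, against 17, 8.27 and 17.3 CPM in late neuroblasts (1.95 ± 0.36). Gria2, the AMPA receptor subunit that limits calcium entry, had 777, 815 and 1256 CPM in neurons, against 747, 414 and 769.5 CPM in late neuroblasts and was not called (adjusted p 0.217). The groups were separate for Grin1 and Grik2 and nearly touched for Gria2. Of 37 tested metabotropic and modulatory receptors, 12 rose, with a median of 2.42 (3.79 within index A), but the count was 4 without late neuroblast replicate 1, 6 without replicate 3, and 5 and 7 without neuron replicates 1 and 3. Chrm2, the muscarinic M2 receptor, and Oprk1, the kappa opioid receptor, were at 0 in all late neuroblast libraries. Chrm2 had 40.2, 64.6 and 47.1 CPM in neurons, at least 478-fold higher, and Oprk1 had 42.0, 43.1 and 12.5 CPM, at least 307-fold higher (bounds of the neuron mean against 3 counts over the late neuroblast libraries).

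Of 24 tested genes of transmitter synthesis, transport and chloride, 3 rose and 1 fell, and 1 rose without late neuroblast replicate 1 or neuron replicate 3. Slc12a5, the chloride extruder KCC2 that makes GABA inhibitory, had 213, 188 and 139 CPM in neurons, against 28.3, 15.5 and 8.01 CPM in late neuroblasts (3.37 ± 0.52, adjusted p 0.00162). Gad1 was not called, as given above. Gad2, the other enzyme that makes GABA, and Slc32a1, its vesicular transporter, both chosen after their values were seen, had 277, 421 and 506 CPM in neurons, against 314, 589 and 238 CPM in late neuroblasts for Gad2 and 23.9, 11.9 and 9.68 CPM in neurons, against 14.1, 27.2 and 15.7 CPM in late neuroblasts for Slc32a1. Both overlapped, so that late neuroblasts held these mRNAs at levels that could not be told from those of neurons with 3 libraries a group (log2 fold changes 0.08 ± 0.31 and -0.33 ± 0.63). Th, the dopamine enzyme of periglomerular cells and likewise chosen after seeing its values, had 181, 239 and 703 CPM in neurons, against 0, 6 and 49.7 CPM in late neuroblasts and was not called (adjusted p 0.06).

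Ion channels followed the receptors. Of 51 tested potassium and HCN channel genes, 17 rose and 4 fell, with a median of 1.74. The count that rose was 10 without late neuroblast replicate 1 and 11 without neuron replicate 3, and 2 fell without late neuroblast replicate 1 or 2 or neuron replicate 3. Kcnj9, an inward rectifier opened by G proteins, had 53.2, 67.7 and 48.8 CPM in neurons, against 3.53, 2.14 and 1.25 CPM in late neuroblasts (4.60 ± 0.66, adjusted p 0.00096), and Kcna6, a voltage-gated channel of the Kv1 family, had 31.7, 61.8 and 40.2 CPM in neurons, against 5.71, 5.86 and 9.62 CPM in late neuroblasts (2.66 ± 0.49). Kcnn2, a calcium-activated channel, went the other way at 41.6, 32.9 and 35.4 CPM in neurons, against 108, 117 and 150.3 CPM in late neuroblasts (-1.77 ± 0.25). Of 32 tested sodium and calcium channel genes, 6 rose (3 without late neuroblast replicate 1) and 1 fell. Scn2a, a sodium channel that carries action potentials, had 158, 173 and 155 CPM in neurons, against 11.9, 19.2 and 20.8 CPM in late neuroblasts (3.23 ± 0.69). Nalcn, the sodium leak channel, had 123, 186 and 113 CPM in neurons, against 27.5, 18.3 and 41.5 CPM in late neuroblasts (2.28 ± 0.43), and Cacna1e, the R-type calcium channel, changed by 3.21 ± 0.63. These 3 genes did not overlap between the groups. Scn3b, a sodium channel beta subunit, had 145, 154 and 166 CPM in neurons, against 111, 126 and 140.5 CPM in late neuroblasts and was not called, although the groups did not overlap (adjusted p 0.562).

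Part of the postsynaptic and adhesion genes rose. Of 53 tested postsynaptic scaffold and synaptic adhesion genes, 11 rose and 3 fell, against 5.33% and 9.34% of all genes, with a median of 0.92. The share that fell was thus below that of all genes. Dlg2, the scaffold PSD-93, had 130.5, 152 and 125 CPM in neurons, against 11.6, 14.2 and 10.3 CPM in late neuroblasts (3.49 ± 0.43, adjusted p 0.00044). Camk2a and Camk2b, the alpha and beta chains of calcium/calmodulin-dependent kinase II, changed by 3.48 ± 0.56 and 3.68 ± 0.51, and Camk2b had 369.9, 640.3 and 672 CPM in neurons, against 46.9, 48.5 and 36 CPM in late neuroblasts. Ptprs, a receptor phosphatase of growing axons and synapses, had 308, 258 and 259.8 CPM in neurons, against 769, 998 and 608 CPM in late neuroblasts (-1.52 ± 0.23). Of 37 tested cadherins and related genes, 7 rose and 3 fell, and 3 or 4 rose without late neuroblast replicate 1 or 2 or neuron replicate 1 or 3. The share that fell was near the 9.34% over all genes. Ncam1, the main carrier of polysialic acid, had 674, 661 and 590.5 CPM in neurons, against 1491, 1913 and 2100 CPM in late neuroblasts (-1.51 ± 0.20, adjusted p 0.000658), and Cdh2, N-cadherin, had 89.8, 175 and 68.7 CPM in neurons, against 445, 320.2 and 363 CPM in late neuroblasts (-1.76 ± 0.30). Ncam1 thus fell to a measurable level while the enzyme St8sia2 was at 0 in neurons. Cdh13, a cadherin without a transmembrane part, rose at 117, 85.1 and 129 CPM in neurons, against 6.2, 11.2 and 18.7 CPM in late neuroblasts (3.20 ± 0.64).

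Calcium handling rose widely. Of 47 tested calcium-binding and calcium-signalling genes, 24 rose and the other 23 did not pass the test, with a median of 2.204 (2.62 within index A), and 12 rose without late neuroblast replicate 1. Atp2b1, a calcium pump of the plasma membrane, had 713, 877 and 988 CPM in neurons, against 106, 118 and 102 CPM in late neuroblasts (2.98 ± 0.28, adjusted p 0.000107), and its relative Atp2b2 had 248, 232 and 282 CPM in neurons, against 53, 63.8 and 48.4 CPM in late neuroblasts (adjusted p 0.000184). Scgn, the calcium-binding protein secretagogin, was among the 12 largest rises over all genes at 137, 149 and 169 CPM in neurons, against 0, 1.17 and 7.66 CPM in late neuroblasts (5.78 ± 1.29). Pde1a, a phosphodiesterase activated by calmodulin and also among the 12, had 68.5, 32.6 and 44.9 CPM in neurons, against 0, 0 and 0.89 CPM in late neuroblasts (7.69 ± 1.55, and 12.04 without late neuroblast replicate 3, the 1 library of that group with a count). Calm2, which encodes calmodulin, had 2399, 2597 and 3812 CPM in neurons, against 659, 956 and 554 CPM in late neuroblasts (2.02 ± 0.26). Its counts can be shared with processed copies. Calb2, which encodes calretinin of granule and periglomerular cells and was chosen after its values were seen, had 746, 1225 and 559.6 CPM in neurons, against 50.6, 50.7 and 37.8 CPM in late neuroblasts (4.18 ± 0.74).

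Peptide and dense-core vesicle genes rose in 10 of 23 tested cases, with a median of 1.96, and the other 13 did not pass the test. Chga, the granule protein chromogranin A, had 406, 252 and 209.7 CPM in neurons, against 75.3, 85.4 and 70.5 CPM in late neuroblasts (1.91 ± 0.28, adjusted p 0.00115). Ptprn, a membrane protein of these vesicles, had 398, 246 and 367 CPM in neurons, against 23.2, 30.3 and 44.7 CPM in late neuroblasts (3.37 ± 0.66), and Pcsk2, a protease that cuts peptide precursors, changed by 2.98 ± 0.55. Npy, which the bulb's ensheathing cells also express, had 292, 451 and 128 CPM in neurons, against 466, 24.3 and 2277 CPM in late neuroblasts and was not called. Late neuroblast replicate 2 was again lowest. Among immediate early genes, 26 were tested, 4 rose and 3 fell. Arc, a synaptic activity gene, had 39, 82.6 and 191 CPM in neurons, against 4.86, 1.93 and 0 CPM in late neuroblasts (5.48 ± 0.96), and Nr4a1, a nuclear receptor induced by activity, had 213, 281 and 339.5 CPM in neurons, against 12.2, 18.3 and 38.5 CPM in late neuroblasts (3.60 ± 0.64). Dusp1, a MAP kinase phosphatase, had 64.5, 68.2 and 87.9 CPM in neurons, against 258, 326 and 207 CPM in late neuroblasts (-1.84 ± 0.28). Fos and Egr1, which tissue dissociation also induces, had 956, 336 and 305 CPM in neurons, against 291, 382 and 179.9 CPM in late neuroblasts for Fos and 302, 251 and 366 CPM in neurons, against 289.6, 364 and 150.5 CPM in late neuroblasts for Egr1, and neither was called. The count that rose was 7 without late neuroblast replicate 2, and the count that fell was 1 or 2 without 4 of the libraries (late neuroblast replicates 1 and 2, neuron replicates 2 and 3).

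Among the 12 largest rises over all genes were further secreted and signalling proteins. Grem1, an antagonist of bone morphogenetic proteins, had 75.4, 54.9 and 45.8 CPM in neurons, against 0.608, 0.207 and 0 CPM in late neuroblasts (7.64 ± 1.16, adjusted p 0.00234). Fgf9, a fibroblast growth factor, had 54.1, 49.5 and 28.7 CPM in neurons, against 0, 0.689 and 1.25 CPM in late neuroblasts (6.12 ± 1.36), and Lamp5, a vesicle protein of some interneurons, had 26.4, 61.8 and 85.5 CPM in neurons, against 0, 1.31 and 0 CPM in late neuroblasts (6.78 ± 1.45, and 12.24 without late neuroblast replicate 2). Ano3, a membrane protein of the anoctamin family, had 146, 125 and 154 CPM in neurons, against 0, 0.965 and 4.99 CPM in late neuroblasts (6.27 ± 1.12). Late neuroblast replicate 1 was at 0 for Fgf9, Lamp5 and Ano3, and replicate 3 for Grem1 and Lamp5. Of 62 tested growth factor and trophic signalling genes, 11 fell and Fgf9 alone rose. Fgfr2, a receptor for fibroblast growth factors that astrocytes and progenitors share, had 17.5, 61.1 and 27.8 CPM in neurons, against 180.4, 167 and 233 CPM in late neuroblasts (-2.45 ± 0.38), and Igf1r, the receptor of insulin-like growth factor, had 22.9, 30.0 and 27.9 CPM in neurons, against 91.3, 103 and 48.8 CPM in late neuroblasts (-1.59 ± 0.29). Their median was -0.67, and 0.64 within index A.

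Enzymes of glycolysis and pyruvate use were among the genes higher in neurons. Of 24 tested glycolysis and lactate genes, 7 rose (3 without neuron replicate 3) and the other 17 did not pass the test, with a median of 0.74 (1.63 within index A). Eno2, the neuronal enolase, had 685, 625 and 653 CPM in neurons, against 60.7, 59.6 and 61.3 CPM in late neuroblasts (3.43 ± 0.54, adjusted p 0.00167). Aldoa, an aldolase, had 2149, 2256 and 2641 CPM in neurons, against 513, 265 and 659 CPM in late neuroblasts (2.29 ± 0.31), and Pkm, pyruvate kinase, had 1084, 1304 and 1334 CPM in neurons, against 489, 366 and 647 CPM in late neuroblasts (1.31 ± 0.22). Aldoc, the aldolase of astrocytes, had 448, 1544 and 286 CPM in neurons, against 2310, 272 and 3146 CPM in late neuroblasts and was not called (adjusted p 0.318). The 6 libraries had the same order for Aldoc as for the summed astrocyte markers. Of 32 tested genes of the tricarboxylic acid cycle and pyruvate entry, 10 rose and 1 fell, with a median of 0.48 (0.95 within index A). Mdh1 and Got1, cytosolic enzymes of the malate-aspartate shuttle, had 1026, 1236 and 1457 CPM in neurons, against 325, 248 and 329 CPM in late neuroblasts for Mdh1 (2.04 ± 0.23) and 363, 345 and 383 CPM in neurons, against 61.3, 48.8 and 25.5 CPM in late neuroblasts for Got1 (3.01 ± 0.45). Of 72 tested respiratory chain and ATP synthase subunits, 5 rose and 1 fell, near or below the shares of all genes, with a median of 0.15 (0.48 within index A, 0.23 without late neuroblast replicate 3 and 0.01 without neuron replicate 1), and 3 rose without late neuroblast replicate 1 or neuron replicate 3. Atp5b, the beta subunit of ATP synthase, had 1767, 2124 and 2275 CPM in neurons, against 1300, 1112 and 1266 CPM in late neuroblasts (0.75 ± 0.18), while Cox4i1 of complex IV had 509, 552 and 414 CPM in neurons, against 591, 507 and 619 CPM in late neuroblasts and overlapped.

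Genes of the vacuolar proton pump rose. Of 57 tested lysosome and autophagy genes, 10 rose and 3 fell, with a median of -0.01 that was 0.73 within index A, 0.34 without late neuroblast replicate 3 and 0.18 without neuron replicate 1 (6 fell without late neuroblast replicate 2), and all 10 that rose encode the vacuolar ATPase or its accessory proteins, the proton pump that also loads synaptic vesicles. Over all 20 tested genes named for this pump, a group formed after the values were seen, 13 rose and Atp6v0e fell (-0.96 ± 0.26, called in 2 of the 6 fits that left out 1 library), with a median of 0.99 (1.19 within index A). Atp6v1a, its catalytic subunit, had 447, 626 and 965 CPM in neurons, against 163, 188 and 156 CPM in late neuroblasts (2.01 ± 0.27, adjusted p 0.000663). Atp6v1g2, a subunit of neurons, had 654, 452 and 698 CPM in neurons, against 68.9, 58.8 and 21.2 CPM in late neuroblasts (3.59 ± 0.58). The lysosomal proteins Psap and Ctsb, by contrast, had 1598, 2247 and 1440 CPM in neurons, against 1708, 721 and 2212 CPM in late neuroblasts for Psap and 674, 754 and 702 CPM in neurons, against 739.5, 244 and 888 CPM in late neuroblasts for Ctsb, and both overlapped. Of 26 tested genes of energy buffering and ion pumping, 9 rose (5 without late neuroblast replicate 1) and 1 fell. Atp1b1, a beta subunit of the sodium pump, had 2386, 2798 and 2626 CPM in neurons, against 450.3, 640.3 and 298 CPM in late neuroblasts (2.49 ± 0.30, adjusted p 0.00044), without overlap.

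Ribosomal protein mRNAs were lower in neurons. Of 80 tested cytosolic ribosomal protein genes, 76 fell and the other 4 (Rpl3, Rpl5, Rpl22l1 and Rpl24) did not pass the test. The median log2 fold change was -1.71 (-1.45 within index A). Of the 80, 78 did not overlap between the groups, against 31.2% of all genes tested. Whichever library was left out, 69 fell, against 811 of all 17592 genes tested. Rplp0, of the ribosomal stalk, had 161, 143 and 139.5 CPM in neurons, against 622, 724 and 513 CPM in late neuroblasts (-2.07 ± 0.21, adjusted p 0.00017). Rps26, near the mRNA exit of the small subunit, had 62, 42.4 and 30.4 CPM in neurons, against 352, 257 and 273 CPM in late neuroblasts (-2.71 ± 0.30), and Rps27a, made as a fusion with ubiquitin, had 78.1, 80.9 and 80.8 CPM in neurons, against 361, 252 and 270.5 CPM in late neuroblasts (-1.88 ± 0.22). Rpl3, in contrast, had 368, 281 and 313 CPM in neurons, against 448, 413 and 398 CPM in late neuroblasts (adjusted p 0.163), and Rpl5 had 169, 122 and 151 CPM in neurons, against 219.7, 313 and 183 CPM in late neuroblasts (adjusted p 0.0793). Rpl22, whose tagged allele all mice carried, changed by -1.03 ± 0.28 and was called in 2 of the 6 fits that left out a library. Many of these genes have near-identical processed copies, so single values are uncertain, but the authors' expected counts, which distribute shared reads, gave 76 lower as well.

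Ribosomal protein mRNAs are known for a start in a run of pyrimidines, the TOP motif, through which their translation is regulated, and start-site windows are shown for that reason. A run of at least 7 C or T that touched the annotated start (within 3 bases) was found in 26 of 60 ribosomal protein genes with a RefSeq promoter entry (43.3%), against 1653 of 11701 tested genes (14.1%). The windows below run from 15 bases before to 15 after the annotated start, on the gene's strand, with the run in capitals. They are 4 of the 8 genes of smallest adjusted p with an entry, after genes of a single chromosome were left out of the ranking. In 3 of the 8, all shown, a run touched the start by this rule. In the other 5, of which Rplp0 is shown, none did, although the Rps27l window held a run farther upstream.
Rpl7a (GRCm38.p6 chr2:26910792-26910821, plus strand): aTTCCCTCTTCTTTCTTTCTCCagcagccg
Rps18 (GRCm38.p6 chr17:33955651-33955680, minus strand): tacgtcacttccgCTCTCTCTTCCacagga
Rps26 (GRCm38.p6 chr10:128626492-128626521, minus strand): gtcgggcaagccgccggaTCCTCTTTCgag
Rplp0 (GRCm38.p6 chr5:115559452-115559481, plus strand): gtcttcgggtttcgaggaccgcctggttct
Annotated starts can lie some bases off the start in use, which moves the run within the window. An ETS-type element, CCGGAAGT on either strand, was in 12 of the 60 ribosomal protein promoters (20%), in 101 of 1147 lower genes (8.81%), in 23 of 697 higher genes (3.30%) and in 965 of all 11701 (8.25%). Both motifs describe letters only.

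Part of the translation factors and RNA-binding proteins fell as well. Of 56 tested initiation and elongation factors, 16 fell and 1 rose (10 fell without late neuroblast replicate 1, 6 without replicate 2), with a median of -0.50. Eef1a1, the elongation factor of most cells, had 794, 817 and 771 CPM in neurons, against 2158, 2032 and 1663 CPM in late neuroblasts (-1.30 ± 0.20, adjusted p 0.00138), and Btf3 and Naca, which bind nascent chains at the ribosome, changed by -1.45 ± 0.19 and -0.96 ± 0.16. Proteasome subunits fell less often than genes overall (9.34%), with 2 of 42, Psme1 (-1.12 ± 0.22) and Psma6 (-0.65 ± 0.19, called in 1 of the 6 fits that left out a library). Of 43 tested hnRNP and SR proteins, 9 fell and 1 rose, and the count that fell was 5 without late neuroblast replicate 2 and 15 without replicate 3. Hnrnpa1, which guides splice-site choice, had 136, 100.5 and 99.4 CPM in neurons, against 505, 655 and 365 CPM in late neuroblasts (-2.18 ± 0.24, adjusted p 0.000237). Ptbp1, the splicing repressor of non-neuronal cells, had 51.7, 47.7 and 34.6 CPM in neurons, against 129, 122 and 124 CPM in late neuroblasts (-1.48 ± 0.20), and Srrm4, which activates neuronal microexons, had 53.8, 70.8 and 27 CPM in neurons, against 171, 173 and 112 CPM in late neuroblasts (-1.59 ± 0.35). Both fell, while Rbfox3 rose. Of the 28 tested splicing regulators, 7 fell and 3 rose, against 3 and 4 without late neuroblast replicate 2, 4 and 1 without replicate 1, 8 and 1 without replicate 3, and 5 and 1 without neuron replicate 3.

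Part of the chromatin genes fell. Of 75 tested modifiers and architectural proteins, 32 fell (19 without late neuroblast replicate 2) and 4 rose, with a median of -0.77. H3f3a, which encodes the replacement histone H3.3 and has processed copies, had 144, 151 and 169.8 CPM in neurons, against 1194, 1401 and 900.2 CPM in late neuroblasts (-2.91 ± 0.23, adjusted p 4.41e-05). Hmgb2, a chromatin protein of dividing and immature cells, had 9.4, 9.18 and 15.5 CPM in neurons, against 94.2, 105 and 58.2 CPM in late neuroblasts (-2.93 ± 0.29), and Chd7, a remodeller active in adult neurogenesis, had 61.4, 79.8 and 61.8 CPM in neurons, against 245, 418 and 175 CPM in late neuroblasts (-2.04 ± 0.29). The deacetylases went apart: Hdac2 had 39.1, 59.2 and 64.1 CPM in neurons, against 248, 459 and 188 CPM in late neuroblasts (-2.46 ± 0.39), and Hdac11 had 119, 117 and 101 CPM in neurons, against 32.6, 33.1 and 36.3 CPM in late neuroblasts (1.73 ± 0.38). Of 29 tested subunits of the BAF remodelling complex, 10 fell (5 without late neuroblast replicate 2) and the other 19 did not pass the test. Actl6a, the actin-like subunit of progenitors, had 26.4, 15.1 and 38.9 CPM in neurons, against 86.9, 101 and 71.8 CPM in late neuroblasts (-1.70 ± 0.30), and Actb, which the complex shares with the cytoskeleton, had 1574, 1505 and 1632 CPM in neurons, against 5070, 6980 and 4091 CPM in late neuroblasts (-1.78 ± 0.23).

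Part of the cell cycle genes fell. Of 47 tested, 16 fell (26 without neuron replicate 3) and 2 rose, with a median of -1.63. Kif11, the kinesin of the mitotic spindle, had 0, 0.367 and 0 CPM in neurons, against 25.7, 21 and 14.6 CPM in late neuroblasts (-7.17 ± 0.62, and -10.76 without neuron replicate 2, the 1 neuron library with a count), and Ccnd2, cyclin D2 of neural progenitors, had 97.2, 74.6 and 43.4 CPM in neurons, against 905, 1443 and 759.8 CPM in late neuroblasts (-3.85 ± 0.34, adjusted p 6.82e-05). Late neuroblasts thus held Ccnd2 in all 3 libraries, and neurons a remainder of it. The 2 genes that rose were Ccne1, cyclin E1, with 34.6, 19.9 and 33.7 CPM in neurons, against 2.31, 2.76 and 2.31 CPM in late neuroblasts (3.57 ± 0.37), and the cell cycle inhibitor Cdkn1a (2.06 ± 0.41). Of 29 tested apoptosis genes, 4 fell and 2 rose, near the shares of all genes (9.34% and 5.33%). Those that fell included Trp53, the tumour suppressor p53, with 33.4, 44.4 and 33.5 CPM in neurons, against 92.2, 116 and 71 CPM in late neuroblasts (-1.33 ± 0.23). Of 25 tested long noncoding RNAs, 11 fell and 3 rose. Pantr1, a neighbour of the Pou3f3 gene, had 11.2, 15.9 and 12.7 CPM in neurons, against 104, 104 and 126 CPM in late neuroblasts (-3.06 ± 0.21, adjusted p 2.5e-05). Dlx6os1, transcribed from the Dlx5 and Dlx6 locus, had 115, 155 and 128 CPM in neurons, against 655, 1178 and 463 CPM in late neuroblasts (-2.53 ± 0.34), and Snhg14, a long imprinted transcript, had 390.2, 260.3 and 251 CPM in neurons, against 81.1, 120.1 and 84.4 CPM in late neuroblasts (1.66 ± 0.24). The libraries are not stated to keep strand, so reads of Dlx6os1 and its antisense partners cannot be told apart.

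**Figure D4:**
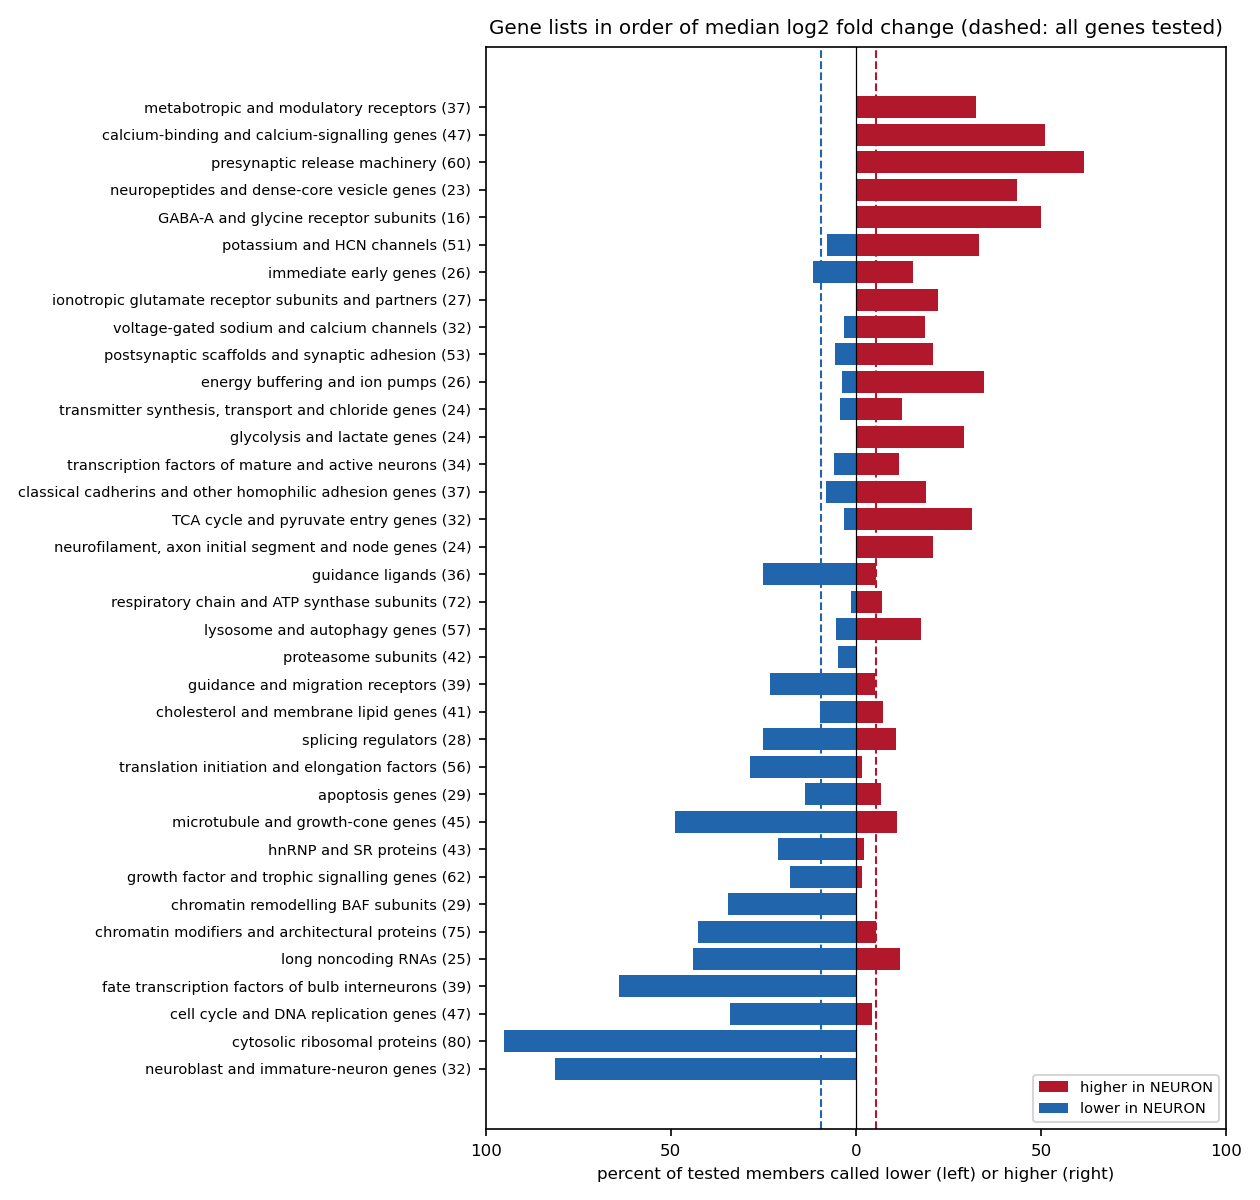
Share of the tested members of 36 gene lists that were called higher (red, right) or lower (blue, left) in NEURON, in order of the list's median log2 fold change, with the number tested in brackets. Dashed lines give the shares over all genes tested (5.33% higher, 9.34% lower): ribosomal protein and neuroblast genes extend farthest to the left, presynaptic and calcium-signalling genes to the right.

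Related genes with similar products were also compared within each library. For 30 pairs the log2 ratio of TPM was taken in each library, with a pseudocount of 1 TPM. Depth and scaling cancel in this ratio for genes well above the pseudocount, and only in part for genes near or below it. The ratio did not overlap between the groups in 19 pairs, for which the exact permutation test (two-sided, 3 against 3) gives 0.1, the smallest p it can give. For single genes, 31.2% of those tested did not overlap in CPM. The pairs were chosen with earlier results of these data known. The ratio of Snap25 to its ubiquitous relative Snap23 was 7.89 ± 0.36 in neurons and 4.13 ± 0.42 in late neuroblasts (log2, mean ± SD, n = 3 each). For Dnm1 over the ubiquitous dynamin Dnm2 it was 0.92 ± 0.88 in neurons and -3.01 ± 0.82 in late neuroblasts. Snap25 thus led in both groups, and Dnm1 led in neuron replicates 1 and 2 alone. Grin2a over Grin2b, the late and the early NMDA receptor subunit, gave -2.05 ± 0.76 in neurons and -5.79 ± 0.60 in late neuroblasts. Slc12a5 over the chloride importer Slc12a2 gave 2.64 ± 0.77 in neurons and 0.13 ± 0.97 in late neuroblasts. Map1a over Map1b gave -2.59 ± 0.18 in neurons and -5.06 ± 0.41 in late neuroblasts. With a pseudocount of 0.1 TPM the ratio of Grin2a to Grin2b was -2.11 in neurons and -8.31 in late neuroblasts, a difference of 6.20. Grin2a averaged 0.28 TPM in late neuroblasts, below the pseudocount of 1 TPM. The edgeR test did not call it (adjusted p 0.0676). Grin2b and Map1b stayed above their partners in both groups although the ratio moved by 3.74 and 2.47. Tubb4a over Tubb5, the beta-tubulins of mature and of growing cells, gave 1.62 ± 0.41 in neurons and -1.62 ± 0.29 in late neuroblasts, and Hdac11 over Hdac2 gave 0.47 ± 0.44 and -3.31 ± 0.57. In the edgeR test Tubb4a by itself was not called (adjusted p 0.0819), while Tubb5 fell. Oligodendrocytes also express Tubb4a and Hdac11, and the summed markers of these cells were given above. In the opposite direction, Dpf1 over Phf10, the neuronal over the progenitor subunit of the BAF complex, gave -0.54 ± 1.46 in neurons and 2.04 ± 0.22 in late neuroblasts, with 0.96 in neuron replicate 3 and -1.94 in replicate 1. Ptbp2 over Ptbp1 (0.67 ± 0.76 in neurons and 1.01 ± 0.17 in late neuroblasts), Kif5a over Kif5b and Ldhb over Ldha overlapped between the groups.

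**Figure D5:**
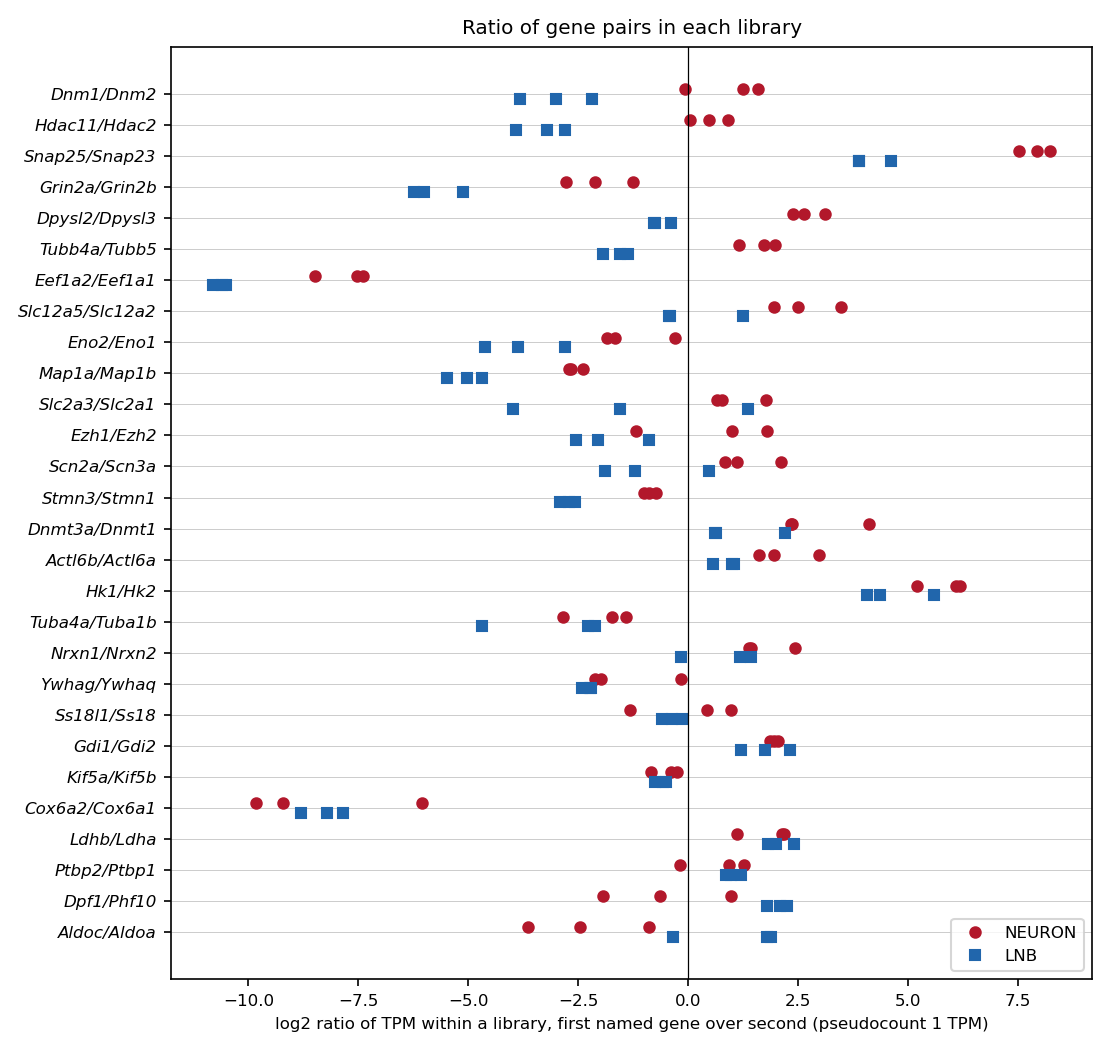
Log2 ratio of TPM of the first over the second named gene (pseudocount 1 TPM) in each NEURON library (red circles) and LNB library (blue squares) for 28 of the 30 pairs, in order of the difference. In 17 of those drawn the groups do not overlap; Dnm1/Dnm2 averages 0.92 in NEURON and -3.01 in LNB, and Aldoc/Aldoa, an astrocyte-linked pair, lies at the lower end.

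Longer genes were more often higher. Genomic length was known for 15420 of the genes tested (87.7%), which were split into 5 bins. In the longest (71080 bp and over, median 132052 bp) 10.1% of genes were called higher and 8.56% lower, and the median log2 fold change was 0.10. In the shortest (up to 6245 bp) 3.05% were higher and 11.9% lower, with a median of -0.45. The 3 bins between had medians of -0.19, -0.17 and -0.12. The difference of 0.55 between the outer bins was 0.64 within index A. The shortest bin held 74 of the 80 ribosomal protein genes and had genes of lower level, with a median of 8.42 CPM in late neuroblasts against 29.3 CPM in the longest. In ribosome-bound mRNA the medians ran the other way, at -0.18 in the longest and 0.03 in the shortest bin.

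The same stages were also profiled in mRNA attached to HA-tagged ribosomes, with 2 neuron and 3 late neuroblast libraries. These came from immunoprecipitation out of whole bulb homogenate with no sorting, so mRNA of other cells that binds unspecifically is not removed, and no background was subtracted here. The sample-type label of the neuron ribosome-bound libraries reads total mRNA, and they were grouped by their titles. The 3 late neuroblast libraries carried a second index sequence that neither neuron library carried, so index and group cannot be told apart there. Of 19066 genes tested, 72 were higher in neurons (0.378%) and 715 lower (3.75%), with 787 in all. The count was 347, 429 and 476 without late neuroblast replicates 1, 2 and 3, and 1215 and 375 without neuron replicates 1 and 2. The higher genes among them numbered 6, 14 and 21 without late neuroblast replicates 1, 2 and 3, and 114 and 14 without neuron replicates 1 and 2. Of the 1596 genes lower in total mRNA that were also tested here, 1269 (79.5%) had the same sign and 157 were called lower. Of the 932 genes higher in total mRNA, 707 (75.9%) had the same sign and 24 were called higher. Over all 16851 genes tested in both, 61.3% had the same sign. This was 67.45% of the genes below 0 in total mRNA and 53.63% of those above 0. St8sia2, Igfbpl1 and Sox11 were lower in both kinds of library (ribosome-bound log2 fold changes -5.83 ± 0.89, -4.04 ± 0.49 and -2.65 ± 0.46, adjusted p 0.00201, 0.000526 and 0.00385).

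The size of the change differed between the 2 kinds of library in a fit over 21 libraries of total and ribosome-bound mRNA, where an interaction term was called for 627 of 19913 genes. Ribosomal protein genes, with a median of -1.71 in total mRNA, had -0.27 in ribosome-bound mRNA, where 2 fell. The difference, ribosome-bound minus total, was above 0 for all 80 and was called for 46. For Rps26 the ribosome-bound change was -1.35 ± 0.26, against -2.71 ± 0.30 in total mRNA. Presynaptic genes differed the other way, with all 60 below 0 and 16 called. Nsf, for example, had 0.21 ± 0.29 in ribosome-bound and 2.71 ± 0.31 in total mRNA. Neuroblast genes were called in 11 cases, with a smaller fall in ribosome-bound mRNA. The pattern was not particular to these lists. Of 47 calcium-binding and calcium-signalling genes, 2 had a difference above 0 and 9 were called below 0 (median -1.62). For the 16 GABA-A and glycine receptor subunits these counts were 1 and 4 (median -2.135). Of 39 interneuron fate factors, 26 were above 0 and 8 were called above 0, with 0 called below. Since the immunoprecipitates hold RNA of unsorted tissue, smaller changes there and a difference in ribosome binding cannot be told apart.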

How the data were processed

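Total mRNA of sorted cells was measured in 3 neuron and 3 late neuroblast libraries, grouped by their titles. The authors deposited raw counts per Ensembl gene, RSEM expected counts and TPM values for each library without pooling. The submitters' processing notes name RSEM 1.2.21, Bowtie2 2.2.6 and the build GRCm38, but the tool behind the raw counts is not given in the sources used here. Raw counts were tested with edgeR 4.0.16 (R 4.3.3, quasi-likelihood test, TMM scaling, filterByExpr) in 1 fit over the 12 total mRNA libraries of 4 stages, which share 1 estimate of the spread, with the contrast neuron minus late neuroblast and Benjamini-Hochberg adjustment over 17592 genes at 0.05. Fold changes are log2 values ± SE. Ribosome-bound mRNA was fitted the same way over 15 immunoprecipitated libraries. The scripts were tested on simulated data. Library totals of 5225929 to 14624002 counts set the precision, and PCR copies without molecular identifiers are not independent molecules. Nothing in the labels says which libraries come from separate mice, so p-values measure the spread between these libraries.

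The members, gene lists and tests were chosen with earlier results of these data known. Named genes are the 4 markers, up to 4 called members of each list with the smallest adjusted p and no overlap, up to 2 members not called with the highest mean, the 12 largest rises and falls (mean of at least 20 CPM in the higher group, no overlap, call kept in each fit that left out a library) and the pair members. Chosen after their values were seen were Atp6v0e, Calb2, Cd24a, Cdkn1a, Gad2, Mex3a, Osbp2, Ppfia3, Rest, Rpl22, Scg2, Slc32a1, Syn1 and Th. Same-numbered libraries of both groups deviated from their group means with correlations of 0.03, -0.14 and -0.09, so they were not treated as pairs. With 3 libraries a group, these values cannot exclude a pairing. Alternatives were other scalings and filters, the 6 libraries alone, a replicate block, the second index, expected counts rounded to whole numbers, genes overlapping ribosomal RNA left out, DESeq2 1.42.0 and each library left out. Symbols were found for 44548 of 45195 genes. Values of some genes are not reported here.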

Additional observations from a re-analysis of the deposited data

Results flagged for a closer look

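For 10 genes the change from late neuroblasts to neurons was called in opposite directions, higher in total mRNA and lower in ribosome-bound mRNA. They were picked for these opposite calls, so the differences between the 2 kinds of library, from an interaction term in edgeR over 21 libraries, are a description and not a test. Values are log2 fold changes, neuron minus late neuroblast. Enc1, an actin-binding protein of neurons, had -1.72 in ribosome-bound and 2.94 in total mRNA, a difference of -4.65. Rgs9, a regulator of G protein signalling, had -1.79 and 3.05, a difference of -4.78, and Sptb, a spectrin, had -2.42 and 3.98, a difference of -6.39. The differences were -3.91 for Cdr1, -2.31 for Pi4ka, -4.34 for Lrp1b, -11.55 for Pvt1, -3.82 for Ftx, -3.48 for Dgkb and -9.73 for Serpind1. Pvt1 and Ftx are long noncoding RNAs, which are not translated. The difference was called for members of most gene lists, for example 46 ribosomal protein genes, 16 presynaptic genes and 11 neuroblast genes, against 627 of all 19913 genes. The part of unsorted tissue in the immunoprecipitates was not tested.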

How the results depend on the processing

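DESeq2 called 3875 genes (1928 higher), the 6 libraries alone 1290 (496 lower), index A alone 1666 (511 higher) and the remaining alternatives with all libraries between 2008 and 2588. With single libraries left out, 1625 to 2405 genes were called (518 to 887 higher), and 347 to 1215 in ribosome-bound mRNA. A replicate block, which the correlations do not call for, gave 2014 genes (725 higher, 1289 lower) and 650 in ribosome-bound mRNA (40 higher, 610 lower). The length difference was 0.45 with at least 5 CPM, 0.48 with the 6 libraries, 0.64 within index A, 0.46 with expected counts, and 0.53 to 0.64 with a library left out. The RE1-type letters were in 1 higher gene within index A, 17 with DESeq2, and 5 to 11 with a library left out; these length and letter alternatives were added after seeing the data. The cause of these shifts was not tested. No named gene that was called changed sign in any of the 17 alternatives. The rule for naming called list members required groups that did not overlap. This outcome was therefore largely set by the choice and is not a test.

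Genes that were not called changed sign as follows (log2 fold change). Within index A, Aldoc had 1.48, Bcl11b -0.44, Egr1 -0.25, Gabrg1 3.31, Gad2 -0.55, Myt1l -0.010 and Npy 3.58. With the index as a term, Gabrg1 had 1.10, Gad2 -0.091 and Npy 3.51. With RLE scaling, Kif5b had 0.014. With DESeq2, Kif5b had 0.012. With the replicate block, Npy had 0.030. With expected counts, Rpl5 had 0.073 and Snap23 0.11. With single libraries left out, Bcl11b ranged from -0.15 to 0.60, Ctsb -0.051 to 0.53, Egr1 -0.093 to 0.61, Gabrb1 -0.21 to 0.99, Gabrg1 -0.79 to 0.19, Gad2 -0.17 to 0.68, Kif5b -0.27 to 0.089, Npy -2.13 to 0.24, Psap -0.026 to 0.54, Slc32a1 -0.82 to 0.17 and Snap23 -0.52 to 0.079.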
